A study of Mus musculus with 18 samples.

Results

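The 10 genes described here encode replacement histones and the chaperones that carry and deposit them: the oocyte linker histone H1f8, the H3.3 genes H3f3a and H3f3b, the H3.3 depositing chaperone Hira, the H3-H4 carriers Asf1a, Asf1b and Nasp, the oocyte chaperone Npm2, and Chaf1a and Chaf1b of chromatin assembly factor 1 (CAF-1). They were chosen by name, and each gene was read from its brightest probe set among those annotated to that gene alone. Such a probe set exists for 9 of the 10 genes, of 19935 genes measured this way in the series. H3f3b has none, because both of its probe sets are also annotated to Gm6485.

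Transcripts were measured in 18 single 2-cell embryos of the 129SVE strain (129S6/SvEvTac), each on its own array. 9 embryos were Parg(110)-/+, with 3 from each of the Parg(110)-/- fathers PargA, PargB and PargC, and 9 were WT, with 3 from each of the wild-type fathers WT1, WT2 and WT3. All mothers were wild-type and mated naturally, so every Parg(110)-/+ embryo inherited from its father an allele without exons 2 and 3 of Parg, whose enzyme degrades chains of poly(ADP-ribose). Parg(110)-/- fathers lack the long isoform of this enzyme, and an effect of their sperm cannot be told apart from the embryo's own heterozygous genotype. Embryos are written as father and number, such as PargB-3.

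After fertilization the protamines of sperm are removed and the paternal genome is packed anew with histones from the egg. Npm2 (nucleoplasmin) is an egg chaperone that takes part in the opening of sperm chromatin, and H1f8 is the linker histone of oocytes and early embryos. The first nucleosomes of the paternal genome carry H3.3, which can be built in without DNA replication and which Hira deposits with its partners Ubn1, Ubn2 and Cabin1. Asf1a and Asf1b hold H3-H4 dimers and pass them to Hira or to CAF-1, Nasp guards the soluble H3-H4 pool, and CAF-1, built of Chaf1a, Chaf1b and Rbbp4, assembles nucleosomes on newly copied DNA. At the 2-cell stage mouse embryos lose much of their maternal RNA and switch on their own genome.

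Promoter sequences of 9 of the 10 genes, all but Npm2, were matched by symbol in RefSeq's annotation of GRCm38.p6, and the 250 bases before each start were examined. The box CCAAT, counted on either strand as CCAAT or ATTGG with overlapping matches on opposite strands counted separately, was found in 7 of the 9 promoters and in 33.8% of all 32851 promoters of the same length. The promoters of Asf1b and H3f3b each held 4 such boxes, a number reached by 0.84% of all promoters, while those of H1f8 and Nasp held 2, those of H3f3a, Asf1a and Chaf1a held 1, and those of Hira and Chaf1b held none. The sequences of Asf1b (chr8:83955444-83955693, + strand), H3f3b (chr11:116024505-116024754, - strand) and H1f8 (chr6:115944681-115944930, + strand) are shown 5′ to 3′ because they are the promoters with the most boxes and the promoter of the oocyte gene, with the boxes in capitals.
Asf1b: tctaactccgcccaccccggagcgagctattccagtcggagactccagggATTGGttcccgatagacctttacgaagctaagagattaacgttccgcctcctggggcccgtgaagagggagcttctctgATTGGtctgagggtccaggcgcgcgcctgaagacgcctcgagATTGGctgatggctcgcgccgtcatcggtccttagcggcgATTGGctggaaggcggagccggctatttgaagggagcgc
H3f3b: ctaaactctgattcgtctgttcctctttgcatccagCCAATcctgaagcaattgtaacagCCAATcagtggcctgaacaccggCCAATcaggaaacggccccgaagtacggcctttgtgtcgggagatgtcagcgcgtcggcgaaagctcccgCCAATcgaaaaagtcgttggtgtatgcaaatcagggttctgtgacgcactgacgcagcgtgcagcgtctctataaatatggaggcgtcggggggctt
H1f8: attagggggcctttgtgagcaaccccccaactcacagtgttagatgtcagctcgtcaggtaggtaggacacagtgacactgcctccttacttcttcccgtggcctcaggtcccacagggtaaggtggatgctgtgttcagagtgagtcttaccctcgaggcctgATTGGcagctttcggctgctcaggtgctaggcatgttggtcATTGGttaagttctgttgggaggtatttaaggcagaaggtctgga
In CpG content the H1f8 promoter stood at the low end of the set, with 4 CpG dinucleotides against a median of 6 over all promoters. The other 8 promoters all had more than that median, namely 11 in Nasp, 19 in H3f3b, 21 in Chaf1b, 23 in Asf1b, 28 in Chaf1a, 29 in Hira, 31 in Asf1a and 35 in H3f3a. At 35, the H3f3a promoter was among the 2.97% of promoters with as many or more. These counts describe the letters of the windows only, and no binding or methylation was measured here.

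The values are log2 levels after robust multichip averaging (RMA), which brings all arrays to a common scale. Array medians lay between 6.44 and 6.53 in Parg(110)-/+ embryos and between 6.34 and 6.49 in WT embryos. Parg itself, read by 1 probe set whose position relative to the deleted exons is not known here, was 10.23 ± 0.48 in Parg(110)-/+ and 10.54 ± 0.41 in WT embryos (SD, n = 9 each; adjusted p = 0.571 by limma with Benjamini-Hochberg adjustment). The 17 measured of 18 listed maternal oocyte genes had a mean level between 9.99 and 10.61 in Parg(110)-/+ and between 10.17 and 10.73 in WT embryos. Of 18 listed genes active at the 2-cell stage only 6 were measured, namely Zfp352, Tcstv3, Tdpoz1, Tdpoz2, Tdpoz3 and Usp17la, and no Zscan4 gene. Their mean level was between 8.59 and 10.50 in Parg(110)-/+ and between 8.67 and 10.06 in WT embryos. Lists for other sources of RNA lay near or below the median of all probe sets, 6.47: the mean of 8 cumulus, granulosa and oviduct genes was 6.05 to 6.32 in Parg(110)-/+ and 5.87 to 6.20 in WT embryos, that of 6 blood genes 5.23 to 5.40 in Parg(110)-/+ and 5.09 to 5.27 in WT embryos, and that of 8 sperm genes 5.76 to 5.96 in Parg(110)-/+ and 5.58 to 6.05 in WT embryos. Of these 3 lists, 7 of 8, 6 of 6 and 8 of 8 genes were higher on average in Parg(110)-/+ embryos, as were 19337 of all 28815 probe sets. The median difference over all probe sets was 0.051, and -0.0051 once the array medians were made equal, and none of the genes described here was called on either scale.

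The first question was whether the level of these genes differed between genotypes. In the comparison of 9 Parg(110)-/+ with 9 WT embryos, none of the 9 measured genes passed an adjusted p of 0.1, the threshold for a call throughout, and 0% of all 28815 probe sets did (limma, Benjamini-Hochberg over all probe sets). At an unadjusted p under 0.05, 1 of the 9 genes passed, Asf1b, against 10.5% of all probe sets, which is 3018, of which 2583 were higher in Parg(110)-/+ embryos. With equal array medians a separate count found 1792, of which 823 were higher. The average was higher in Parg(110)-/+ embryos for 2 of the 9 genes and lower for 7, with a median difference of -0.05 on the log2 scale, where the median over all probe sets was 0.05.

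Of the oocyte genes, Npm2 differed little in transcript level. Its level ran from 11.38 to 12.21 with a median of 11.84 in Parg(110)-/+ embryos, and from 11.46 to 12.07 with a median of 11.68 in WT embryos, so that the ranges overlapped nearly throughout. The difference was 0.03 ± 0.11 (log2, SE), with a 95% confidence interval from -0.21 to 0.27 (adjusted p = 0.926). This interval, like every interval given below, takes embryos of 1 father as independent. On means per father the SE of Npm2 was 0.15. H1f8 was similar in the mean, and its SD was larger in Parg(110)-/+ embryos, a difference in spread that was not tested. Its level was 8.84, 8.96 and 10.53 in PargA-1 to PargA-3, 9.94, 9.50 and 7.80 in PargB-1 to PargB-3 and 10.72, 10.36 and 9.41 in PargC-1 to PargC-3, against 9.27, 9.31 and 10.24 in WT1-1 to WT1-3, 9.07, 9.97 and 10.19 in WT2-1 to WT2-3 and 9.21, 9.76 and 9.47 in WT3-1 to WT3-3. Thus 3 Parg(110)-/+ embryos lay above the highest WT embryo and 3 below the lowest, and the means were 9.56 ± 0.94 in Parg(110)-/+ and 9.61 ± 0.44 in WT embryos (SD, n = 9 each). The interval of the difference ran from -0.74 to 0.65 (adjusted p = 0.967).

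For H3.3 itself, the probe set of H3f3a alone gave 6.58 to 7.18 in Parg(110)-/+ embryos, with a median of 6.99, and 6.50 to 7.33 in WT embryos, with a median of 6.97. The difference of -0.03 ± 0.10 (log2, SE) had an interval from -0.24 to 0.18 (adjusted p = 0.922), and whether copies of H3f3a elsewhere in the genome add to this signal was not tested. This probe set lay near the median level of all probe sets, 6.47, and far below the shared H3f3a probe sets described next. How much of the H3f3a transcript it reads was not tested. A further 4 probe sets are annotated to both H3f3a and Gm12657 and 2 to both H3f3b and Gm6485, so their signal cannot be given to either gene. The 4 shared H3f3a probe sets lay between 10.80 and 11.81 in Parg(110)-/+ embryos and between 10.76 and 11.88 in WT embryos, with differences from -0.10 to -0.02. The 2 shared H3f3b probe sets lay between 11.31 and 12.19 in Parg(110)-/+ embryos and between 11.60 and 12.30 in WT embryos, with differences of -0.11 and -0.07 and adjusted p of 0.686 to 0.733. Hira, which deposits H3.3, had levels from 7.98 to 8.96 with a median of 8.63 in Parg(110)-/+ embryos, and from 8.04 to 9.15 with a median of 8.97 in WT embryos. 8 of 9 Parg(110)-/+ embryos lay below the WT mean, and 5 WT embryos exceeded the highest Parg(110)-/+ embryo. The difference of -0.28 ± 0.15 did not pass (adjusted p = 0.505, interval -0.59 to 0.03).

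**Figure D1:**
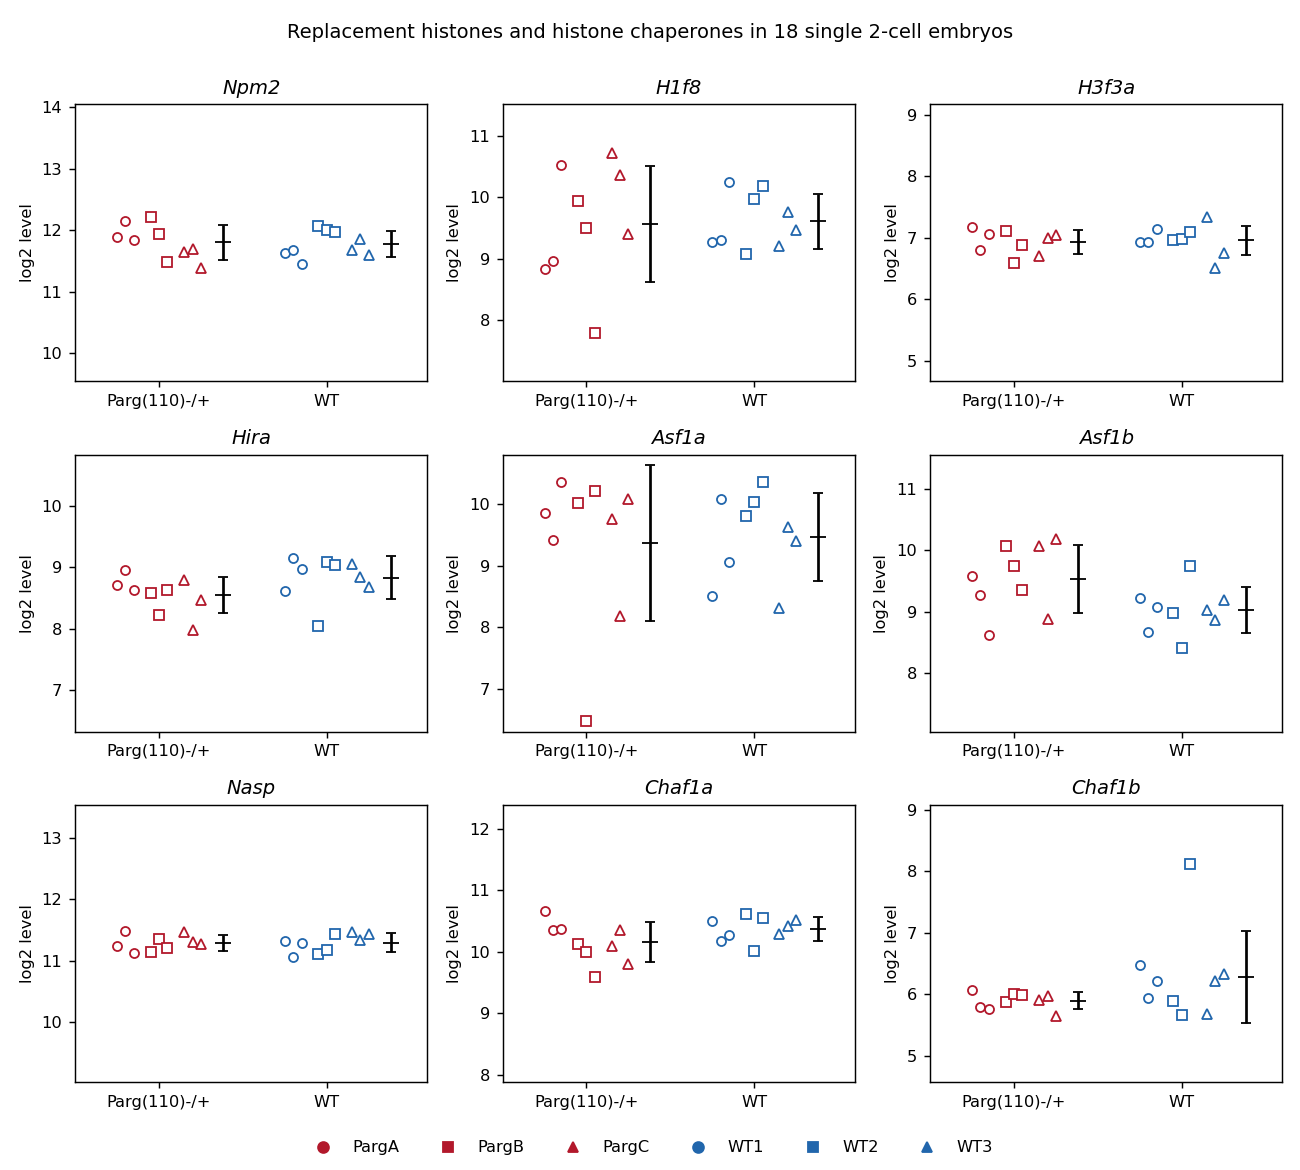
Log2 level of the 9 measured genes (y axis, the same span in every panel) in each of 9 Parg(110)-/+ embryos (left, red) and 9 WT embryos (right, blue), with a symbol for each father and black bars for mean ± SD. H1f8 and Asf1a scatter widely, Nasp hardly at all, and a single WT embryo at 8.11 stands above all others for Chaf1b.

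The largest difference among the carriers of H3-H4 was that of Asf1b. Its levels were 9.57, 9.27 and 8.62 in PargA-1 to PargA-3, 10.07, 9.74 and 9.35 in PargB-1 to PargB-3 and 10.07, 8.88 and 10.18 in PargC-1 to PargC-3, against 9.22, 8.67 and 9.07 in WT1-1 to WT1-3, 8.98, 8.41 and 9.75 in WT2-1 to WT2-3 and 9.03, 8.86 and 9.19 in WT3-1 to WT3-3. 7 of 9 Parg(110)-/+ embryos lay above the WT mean and 3 above the highest WT embryo, while the ranges overlapped. The means were 9.53 ± 0.55 in Parg(110)-/+ and 9.02 ± 0.37 in WT embryos (SD, n = 9 each), a 1.42-fold difference (0.51 ± 0.21 on the log2 scale, SE) and an adjusted p of 0.443 in limma. Asf1a, the paralog of Asf1b, was the most variable gene. It ran from 6.47 to 10.36 with a median of 9.86 in Parg(110)-/+ embryos, and from 8.31 to 10.36 with a median of 9.62 in WT embryos, and its difference was -0.09 ± 0.46 (adjusted p = 0.951). Its interval, from -1.07 to 0.88, was the widest of the 9 genes. Nasp was the steadiest: 11.13 to 11.49 with a median of 11.28 in Parg(110)-/+ embryos, and 11.07 to 11.48 with a median of 11.32 in WT embryos. Its difference was -0.004 ± 0.067 (log2, SE), with an interval from -0.15 to 0.14 (limma adjusted p = 0.988). On means per father the SE was 0.074.

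Of CAF-1, Chaf1a and Chaf1b were lower on average in Parg(110)-/+ embryos, and neither passed. Chaf1a, the large subunit, was 10.67, 10.36 and 10.37 in PargA-1 to PargA-3, 10.13, 9.99 and 9.60 in PargB-1 to PargB-3 and 10.10, 10.36 and 9.81 in PargC-1 to PargC-3, against 10.50, 10.17 and 10.27 in WT1-1 to WT1-3, 10.61, 10.01 and 10.55 in WT2-1 to WT2-3 and 10.29, 10.42 and 10.52 in WT3-1 to WT3-3. 8 of 9 Parg(110)-/+ embryos lay below the WT mean and 3 below the lowest WT embryo, but the difference was -0.22 ± 0.12 (adjusted p = 0.533), and it was -0.09 without the embryos of PargB and -0.37 without those of PargA. For Chaf1b, whose probe set was dim, all 9 Parg(110)-/+ embryos lay below the WT mean, between 5.64 and 6.07, against 5.66 to 8.11 in WT embryos with a median of 6.21. That WT mean was raised by embryo WT2-3 at 8.11: the difference was -0.39 ± 0.24 (adjusted p = 0.560) with all embryos and -0.16 without WT2-3.

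**Figure D2:**
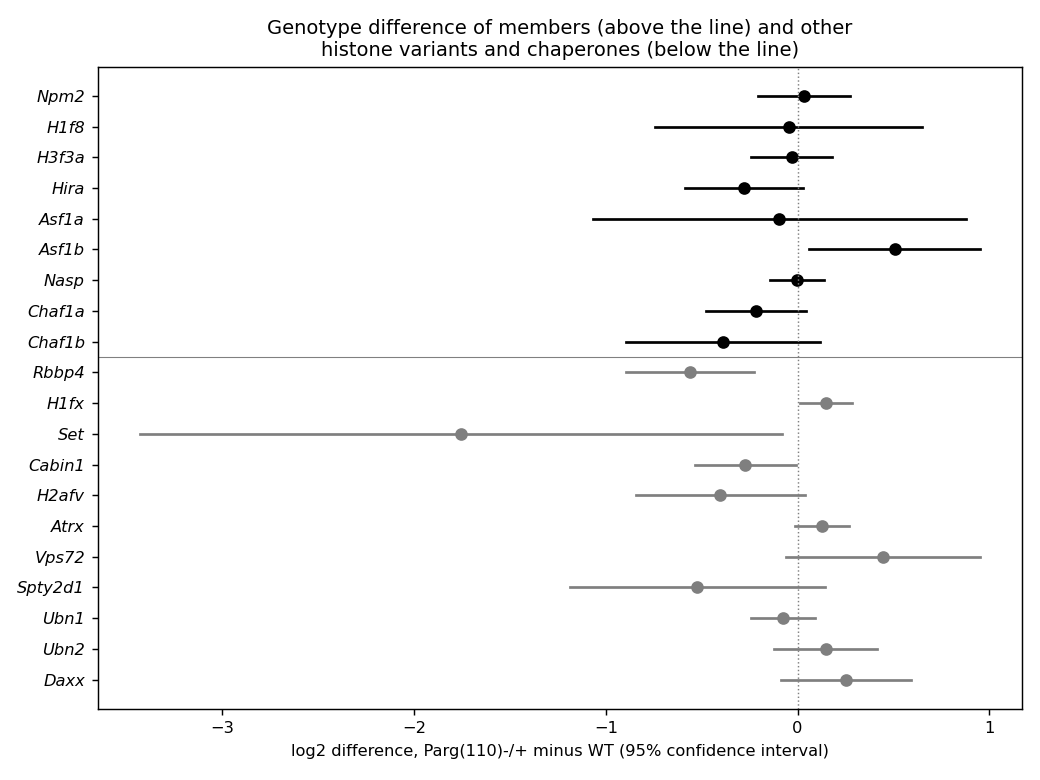
Difference in log2 level, Parg(110)-/+ minus WT (x axis), with its 95% confidence interval from limma, for the 9 measured genes (black) and the other named histone variants and chaperones (grey). Among the 9 genes, only the interval of Asf1b, 0.06 to 0.95, lies clear of 0, and no gene passed after adjustment.

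A wider list of 39 histone variants and chaperones, of which 35 were measured, was examined beside the 10 genes. In it 18 genes were higher and 17 lower on average in Parg(110)-/+ embryos, 0 were called, and 4 passed an unadjusted p under 0.05, of which 1 was higher and 3 lower, a share to be read against the 10.5% of all probe sets. Rbbp4, the small CAF-1 subunit, was 7.77 ± 0.38 in Parg(110)-/+ and 8.33 ± 0.31 in WT embryos (SD, n = 9 each), with 6 Parg(110)-/+ embryos below the lowest WT embryo, and it had the smallest p of the list (difference -0.56 ± 0.16, adjusted p = 0.362 in limma). The Rbbp4 difference lay between -0.69 and -0.44 with an embryo or father left out. Chaf1a, Chaf1b and Rbbp4 of CAF-1 each had a negative difference, as did 9478 of all 28815 probe sets. None of the 3 passed, and whether they go together was not tested. Negative differences were also found in 7 of the 9 measured genes, Chaf1a and Chaf1b among them. That of Chaf1b was -0.16 without WT2-3, and that of Chaf1a -0.09 without the embryos of PargB and -0.37 without those of PargA. The linker histone gene H1fx was 7.02 ± 0.16 in Parg(110)-/+ and 6.87 ± 0.10 in WT embryos (adjusted p = 0.451). Of the partners of Hira, Cabin1 was 9.27 ± 0.25 in Parg(110)-/+ and 9.54 ± 0.29 in WT embryos, with all 9 Parg(110)-/+ embryos below the WT mean (adjusted p = 0.465), while Ubn1 differed by -0.08 ± 0.08 and Ubn2 by 0.15 ± 0.13, which was 0.07 without WT2-3 and 0.03 without the embryos of PargB. Daxx and Atrx, which deposit H3.3 in repeated sequence independently of Hira, differed by 0.25 ± 0.16 and 0.13 ± 0.07. Vps72, which binds the variant H2A.Z, differed by 0.45 ± 0.24, H2afv, an H2A.Z gene, by -0.40 ± 0.21, and Spty2d1, an H3-H4 chaperone, by -0.52 ± 0.32, all without passing. The Spty2d1 difference was -0.14 without the embryos of WT3 and -0.79 without those of WT1, and that of Vps72 was 0.27 without the embryos of PargC. Likewise that of H1fx, 0.15 ± 0.06, was 0.07 without the embryos of PargB.

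Set, a chaperone of histones in the nucleosome assembly protein family that was not among the 10 genes, had a wide gap between WT embryos in the probe set read here. It has 2 probe sets annotated to it alone, of which the brighter was read, and 2 shared with other genes. Whether the others show the gap was not tested. The level from the probe set read was 5.43 to 6.77 in all 9 Parg(110)-/+ embryos, against 10.68, 10.78 and 11.16 in the WT embryos WT1-3, WT3-1 and WT3-3, 7.00 in WT3-2 and 5.42 to 5.91 in the other 5 WT embryos. The difference of -1.76 ± 0.80 did not pass (adjusted p = 0.465) and was -0.74 without the embryos of WT3 and -2.71 without those of WT2, and the SD was 0.38 in Parg(110)-/+ and 2.48 in WT embryos.

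Next, the embryos of each father were set against the 9 WT embryos, which all 3 comparisons share. For PargA, none of the 9 genes was called and none passed an unadjusted p under 0.05, against 0% and 5.32% of all probe sets. For PargB, 0 were called and 2 passed the unadjusted threshold, against 0.0139% and 12.8% of all probe sets. For PargC, 0 were called and 1 passed, against 0.0104% and 7.24%. Asf1b differed from WT by 0.13 ± 0.29 in PargA, 0.70 ± 0.29 in PargB and 0.69 ± 0.29 in PargC embryos (log2, SE; limma adjusted p = 0.999, 0.340 and 0.640). Chaf1a differed by 0.09 ± 0.14, -0.46 ± 0.14 and -0.28 ± 0.14 (adjusted p = 0.997, 0.259 and 0.723), and in PargA embryos both differences were smaller than their SE. The PargC difference of Asf1b was 1.11 without PargC-2 and 0.45 without PargC-3, and the PargB difference of Chaf1a -0.31 without PargB-3, none of them called. When the fathers of 1 genotype were compared with each other by limma's F test, 0 of the 9 genes were called among the Parg(110)-/- fathers and 0 among the WT fathers, against 0.0104% and 0.00347% of all probe sets. At an unadjusted p under 0.05, Chaf1a passed among the Parg(110)-/- fathers (adjusted p = 0.928) and Npm2 among the WT fathers (adjusted p = 1.00), where 5.34% and 4.39% of all probe sets did. Npm2 was 11.59 ± 0.11 for WT1, 12.02 ± 0.05 for WT2 and 11.71 ± 0.14 for WT3 (SD, n = 3 each).

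Each embryo was then examined alone, as the fertilizing sperm differ from one another. A Parg(110)-/+ embryo was compared with the 9 WT embryos and, as the background, each WT embryo with the other 8. Over all probe sets, the share called was 0.628%, 0.635% and 0.604% in PargA-1, PargA-2 and PargA-3, 2.17%, 0.691% and 0.826% in PargB-1, PargB-2 and PargB-3, and 0.76%, 0.625% and 0.843% in PargC-1, PargC-2 and PargC-3. The same share was 0.732%, 0.479% and 0.708% in WT1-1, WT1-2 and WT1-3, 0.93%, 0.68% and 0.6% in WT2-1, WT2-2 and WT2-3, and 1.15%, 0.732% and 0.569% in WT3-1, WT3-2 and WT3-3. Among the 9 genes, 0 of 81 tests were called in Parg(110)-/+ embryos and 1 of 81 in WT embryos.

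That call was Chaf1b in WT2-3, which was 2.06 ± 0.30 above the other 8 WT embryos (log2, SE; limma adjusted p = 0.0232). In the Parg(110)-/+ tests WT2-3 was part of the WT spread, and Chaf1b had an SE of 0.72 in each, so the tests are unlike for this gene. All 9 genes were above the mean of the other WT embryos in WT2-3, by a median of 0.24, which was noticed after the values were seen. The share of all probe sets that were higher in WT2-3 was not counted, so this cannot be read as particular to the 9 genes. In Parg(110)-/+ embryos the smallest adjusted p was 0.162, for Asf1a in PargB-2, where its level was 6.47 and its difference from WT -3.0 ± 0.69. With the spread taken from all 18 embryos in place of WT embryos alone, this difference was called (limma adjusted p = 0.098). Over all probe sets, the 9 Parg(110)-/+ embryos together had 2192 calls with that spread, against 2242 with the spread of WT embryos. H1f8 in PargB-3, at 7.80, differed by -1.81 ± 0.43 (adjusted p = 0.166), and Chaf1a in the same embryo by -0.77 ± 0.20 (adjusted p = 0.223). Asf1b was higher than the WT mean by 1.05 in PargB-1, 1.05 in PargC-1 and 1.16 in PargC-3, each with an SE of 0.37, and none was called (adjusted p = 0.308, 0.426 and 0.445). Hira differed by -0.86 ± 0.34 in PargC-2 (adjusted p = 0.751), and by -0.89 ± 0.20 in the WT embryo WT2-1 (adjusted p = 0.158).

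**Figure D3:**
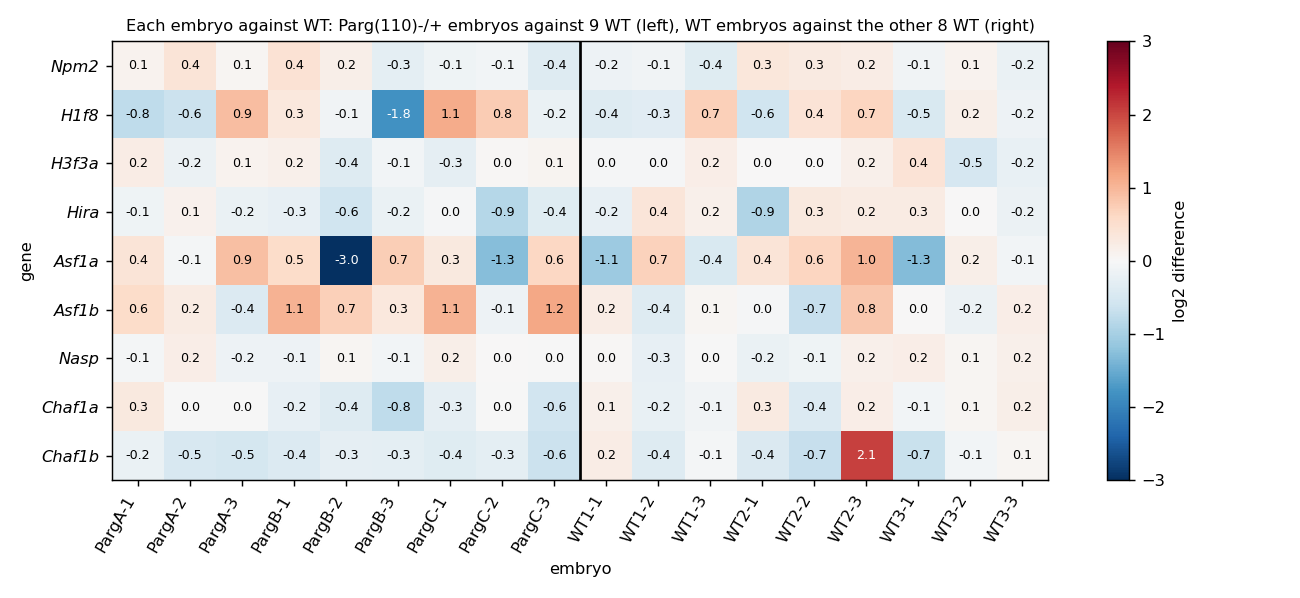
Difference in log2 level (colour and number) of the 9 genes (rows) in each embryo (columns), Parg(110)-/+ embryos against 9 WT embryos on the left and WT embryos against the other 8 on the right. The most negative cell is Asf1a in PargB-2 at -3.0, and the most positive is Chaf1b in WT2-3 at 2.06, the only one called.

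The spread of the values within a genotype differed widely among the genes. Each embryo was amplified and read on 1 array, so differences between embryos cannot be told apart from noise of the measurement. For Asf1a the spread includes PargB-2 at 6.47, the median level of all probe sets. The pooled SD within genotype was 1.03 for Asf1a, 0.73 for H1f8, 0.53 for Chaf1b, 0.47 for Asf1b, 0.32 for Hira, 0.27 for Chaf1a, 0.25 for Npm2, 0.22 for H3f3a and 0.14 for Nasp, where the median over all probe sets was 0.20 and that over probe sets at or above the median level 0.32. A larger SD than that of Asf1a was found in 4.83% of all probe sets, and a larger one than that of Nasp in 72.4%. The SD of H1f8 was 2.12 times as large in Parg(110)-/+ as in WT embryos and that of Asf1a 1.77 times, whereas for Chaf1b it was 0.185 times as large with WT2-3 included. These ratios were not tested.

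The genes were also compared with each other from embryo to embryo, after centring on the mean of each genotype. Over the 36 pairs of the 9 genes, Pearson's r ran from -0.38 to 0.46 with a median of 0.06. 1 pair passed p under 0.05, Asf1b and Chaf1b, and 0 passed after adjustment over the 36 pairs (smallest adjusted p = 0.698 by permutation). For this pair r was 0.46 over 18 embryos, -0.09 in Parg(110)-/+ and 0.85 in WT embryos (n = 9 each), and 0.16 without the 2 embryos farthest from the median of Asf1b. Both genes had their highest WT value in WT2-3.

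Each gene was further set against 2 scores, which gave 18 relations. The scores were the mean log2 level of the 17 measured maternal oocyte genes and of the 6 measured 2-cell genes, without the 9 genes themselves. Only Npm2 with the maternal oocyte score passed. Its Pearson's r was 0.68 (n = 18, permutation p = 0.00165, adjusted p = 0.0297 over the 18 relations), and Spearman's rho was 0.60 (permutation p = 0.0106, adjusted p = 0.117). These p take embryos of 1 father as independent, and a relation between fathers was not told apart from one between embryos. Within genotypes r was 0.75 in the 9 Parg(110)-/+ embryos and 0.61 in the 9 WT embryos. Without PargB-3 and WT2-1, the 2 embryos farthest from the median of the score, r was 0.61 over the other 16 embryos and no longer passed (adjusted p = 0.190). H1f8, the other oocyte gene, had an r of 0.13 with the same score (adjusted p = 0.861). With the 2-cell score the strongest relation by Pearson's r was that of Nasp, r = -0.47, rho = -0.38, which did not pass (permutation adjusted p = 0.409 for r and 0.769 for rho). By rho it was that of Chaf1b, rho = -0.53, r = -0.38, which did not pass either (permutation adjusted p = 0.117 for rho and 0.409 for r).

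**Figure D4:**
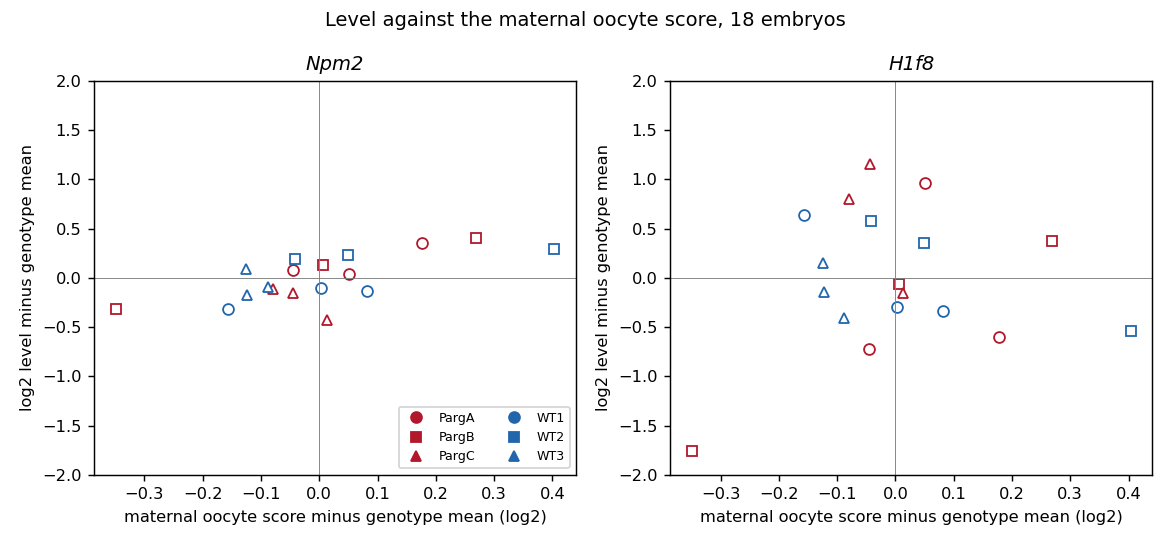
Log2 level of Npm2 (left) and H1f8 (right), each minus its genotype mean (y axes), against the maternal oocyte score minus its genotype mean (x axes) in 9 Parg(110)-/+ (red) and 9 WT embryos (blue). For Npm2 r was 0.68, with PargB-3 farthest to the left and WT2-1 farthest to the right, and for H1f8 it was 0.13.

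Among 10264 genes at or above the median level, those whose values were most like each of the 9 genes over the 18 embryos, centred within genotype, were named by Pearson's r as a description, from arrays that share all embryos. For Npm2 they were Pxdn, Oxsr1 and Tecr (r = 0.87, 0.80 and 0.79), and for H1f8 Mex3b, Ankrd24 and 1190005I06Rik (0.79, 0.76 and 0.75). H3f3a was nearest to Atat1, Pfkl and Mrpl24 (0.81, 0.72 and 0.72), and Hira to Slc16a9, Lrfn1 and Lyzl4 (0.79, 0.79 and 0.75). Asf1a went with Gm10847, Noc3l and Rabgef1 (0.82, 0.75 and 0.73), Asf1b with Neu4, Ppp1r3g and Lmna (0.75, 0.73 and 0.72), and Nasp with Grwd1, Pa2g4 and 4921524J17Rik (0.86, 0.79 and 0.77). The genes most like Chaf1a were Cdc45, Malat1 and Rabggtb (0.82, 0.74 and 0.74). Those most like Chaf1b were Olfr239, Cmip and 1700025H01Rik (0.94, 0.93 and 0.90), but without WT2-3 these values were 0.58, 0.50 and 0.26. Leaving out the embryo farthest from its genotype mean, PargB-2, likewise brought the r of Asf1a with Gm10847 to 0.62, whereas that of Npm2 with Pxdn was 0.85 without PargC-3 and that of Nasp with Grwd1 0.83 without WT1-2. Without PargB-3, H1f8 had an r of 0.51 with 1190005I06Rik and 0.79 with Ankrd24. H3f3a with Pfkl was 0.60 without WT3-2, and Hira with Lyzl4 0.61 without WT2-1. Each r is among the 3 highest of 10264 genes, and the level that unrelated genes would reach was not tested.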

How the data were processed

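The authors made the deposited log2 values with RMA (background correction and quantile normalization of probe intensities, then log2 summaries per probe set) in Partek Genomics Suite from Affymetrix Mouse Gene 1.0 ST arrays, after amplification of each embryo's RNA with the WT-Ovation One-Direct kit. For the arrays, versions of RMA and Partek and a genome build are not given in the sources used here. RMA compresses differences of dim probe sets, and a shift of most genes can be lost in quantile normalization. The number of embryos, 9 of each genotype from 3 fathers, limits the precision, and embryos of 1 father are not independent sires.

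All 28815 probe sets were fitted with limma 3.58.1 in R 4.3.3 (lmFit and eBayes, two-sided), with Benjamini-Hochberg adjustment over all of them and genes were called where the adjusted p was under 0.1. The genotype, family, single embryo and father comparisons are as described above; in the single embryo comparison the spread came from WT embryos alone, with the single embryo taken to vary as they do. Genes were named from the platform annotation, which gives 1 gene for 21780 probe sets, several for 1605 and none for 5430. Correlations were tested with 100000 permutations within genotype, which take embryos of 1 father as independent. The genes and lists were chosen with earlier results of these data known. Named besides the 10 genes were, of the wider list, the 8 genes with the smallest p between genotypes, the fixed partners Ubn1, Ubn2, Cabin1, Rbbp4, Daxx and Atrx, and for each gene the 3 most similar genes. Fits were tested on simulated data. The alternatives were equal array medians, a second quantile normalization, a one-way test without moderation, the father as a block, means per father, bright probe sets alone, and each embryo or father left out. For each of the 9 genes only 1 probe set names it alone, so a choice among probe sets could not be tried.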

Additional observations from a re-analysis of the deposited data

Results flagged for a closer look

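Of 40 sets of 9 values, 1 for each of the 20 named genes in each genotype, 5 had an embryo at one end set apart from the rest by more than Dixon's 95% criterion, where chance flags about 1 in 20 sets, or 2 of 40. 2 of them were among the 18 sets of the 9 measured replacement histones and chaperones. Chaf1b in WT2-3 stood at 8.11, with the other WT embryos between 5.66 and 6.47. Hira in WT2-1 was the lowest WT embryo at 8.04, and the next lowest was WT1-1 at 8.62. Outside the 9 genes, Set was 6.77 in PargB-2, the highest of the Parg(110)-/+ embryos, Atrx was 11.93 in PargC-3, again the highest, and Daxx was 8.19 in WT2-2, the highest of the WT embryos.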

How the results depend on the processing

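Over the alternatives, none of the 9 genes was called between genotypes, and the smallest of their adjusted p was 0.325. Over all probe sets, a one-way test without moderation, the father as a block and means per father also called 0. Of 269 recomputed differences, 235 kept their direction and 34 turned, all in H1f8, H3f3a, Asf1a, Nasp and Npm2. With an embryo or a father left out they lay between -0.35 and 0.19 for H1f8, -0.088 and 0.015 for H3f3a, -0.35 and 0.27 for Asf1a, -0.037 and 0.058 for Nasp and -0.059 and 0.15 for Npm2, and for the partner Ubn1 between -0.17 and 0.015. Nasp was 0.0063 after a second quantile normalization, and Npm2 -0.023 with equal array medians. With an embryo or father left out, Asf1b lay between 0.41 and 0.69 (adjusted p of 0.325 to 0.774), and with equal array medians it was 0.45 (adjusted p = 0.80). Over all 28815 probe sets, p was under 0.05 in 3018 (2583 higher in Parg(110)-/+), and in separate counts in 1792 (823 higher) with equal array medians, 1820 (1229 higher) after a second quantile normalization, 1335 among bright probe sets alone, and 1883 to 3625 with an embryo or father left out, and 0 to 3 were then called. In the family comparisons, leaving out an embryo of the father gave 1 to 20 calls for PargA, 35 to 72 for PargB, against 4, and 20 to 32 for PargC, against 3, none of them among the 9 genes; PargB had 2 calls with either equal medians or the second quantile step. With the spread taken from all 18 embryos, 1 of the 81 tests of the 9 genes in single Parg(110)-/+ embryos was called, against 0. It was Asf1a in PargB-2. Over all 28815 probe sets, the single Parg(110)-/+ embryos together had 2192 calls with that spread, against 2242. The tests of WT embryos were not rerun so. The Npm2 relation with the maternal oocyte score, r = 0.68, was 0.61 and no longer called without the 2 farthest embryos, which left 0 relations. The causes were not tested. No paired analysis was possible because no father is shared between genotypes.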
